A study of Mus musculus with 6 samples.

Results

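The T cell receptor signalling pathway was examined here as a set of 34 genes, from the CD3 chains of the receptor to the transcription factors and inhibitors it acts through. A gene was included when the platform's annotation gave a probe set that symbol and no other, and its probe set with the highest mean over the 6 arrays stood for it. This left 29 of the 34 genes, of 12393 genes with a probe set in all. The kinase Lck, the adaptor Themis, the protease and scaffold Malt1 and the inhibitors Cblb and Ubash3a had no such probe set and are not analysed here. Of the 29 genes, 28 passed a filter on dim probe sets, and Plcg1 did not.

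RNA came from CD4+CD25+ regulatory T cells (Treg) taken by magnetic separation from mice of the Balb/c background, 3 samples from wild type and 3 from MBD2-/- mice, on 1 array each. Mbd2 is a protein that binds methylated DNA, and the knockout group lacked it without any other allele or agent named in the labels. The labels give no age and no description of the deleted part of the gene. The knockout samples are called independent, and nothing says whether each wild-type sample came from a separate animal, so p-values measure the spread between these samples. Magnetic separation enriches a population and leaves other cells in it.

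The values are RMA values on the log2 scale, on which a difference of 1 is a doubling. Wild-type replicate 3 differed from every other array. Across probe sets its Pearson correlation with them was 0.749 to 0.767, against 0.956 to 0.997 among the other 5, and its SD was 1.36 against 1.78 to 1.83. The pathway as a whole is therefore compared with 6 arrays and with 5, without that array. Single genes are given mainly with 5 arrays, and only some of them with 6. In 9 of the 28 tested genes the sign differed between these fits. Among them were Fyn, Bcl10 and Cbl, at log2 differences of 0.10, 0.51 and 0.48 with 6 arrays and below 0 with 5. A fit of 4 arrays, without wild-type replicate 3 and knockout replicate 2, is also given for the pathway and for some of the genes. It was singled out because of its calls: leaving out knockout replicate 2 was the only removal of a further array that gave a call among the pathway genes. The calls in it therefore depend on that choice. Both Mbd2 probe sets were lower in every knockout array than in every wild-type array. Their log2 differences were -2.21 and -2.04 with 6 arrays (limma adjusted p = 0.817 and 0.0744 over all probe sets without a filter). They were -2.80 and -2.18 with 5 (adjusted p = 0.00348 and 0.00238). With 6 arrays the deleted gene itself thus did not reach an adjusted p under 0.05. Of the Treg and T cell markers Foxp3, the transcription factor that defines Treg, was at 8.83, 8.74 and 6.93 in wild type and at 7.98, 6.62 and 8.17 in knockout. Il2ra, which encodes the CD25 used in the sort, was at 8.04, 7.91 and 7.17 in wild type and at 7.46, 6.49 and 7.80 in knockout. Ikzf2, another Treg transcription factor, lay under the filter.

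When a T cell receptor meets its peptide and MHC ligand, the kinase Lck phosphorylates the cytoplasmic tails of the CD3 chains and of CD247, the zeta chain. ZAP-70 binds there and phosphorylates the adaptors LAT and SLP-76 (Lcp2), which assemble phospholipase C, Vav and Ras activators and lead to calcium, NFAT, Ras and NF-kappaB signals. Phosphatases, ubiquitin ligases and inhibitory adaptors hold the pathway back, and in Treg, receptor signals are needed for their suppressive function.

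With all 6 arrays no gene of the pathway passed the threshold, an adjusted p under 0.05 in limma over 13575 probe sets, and the directions were mixed. Of 28 genes, 16 were lower in knockout and 12 higher, with a median log2 difference of -0.06 against 0.15 over all tested probe sets, of which 36.8% were lower. In this fit 0.103% of all probe sets passed, and none of the 28 genes reached an unadjusted p under 0.05, against 4.08% of all. The direction of the median rested on single arrays. It was 0.14 without wild-type replicate 1, 0.12 without wild-type replicate 2, 0.12 without knockout replicate 2 and -0.39 without wild-type replicate 3. In 19 of the 28 genes wild-type replicate 3 had the lowest value of all arrays (67.9%), as it had for 63.8% of all tested probe sets.

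Without wild-type replicate 3, most genes of the pathway had lower values in knockout, but none passed the threshold. With these 5 arrays 25 of the 28 genes were lower, with a median log2 difference of -0.39 against -0.06 over all tested probe sets, of which 60.7% were lower. The threshold was passed by 0 of them, while 1.4% of all probe sets passed it, 0.729% in the lower and 0.67% in the higher direction. An unadjusted p under 0.05 was reached by 9 genes (32.1%), against 21.6% of all probe sets. In 21 genes (75%) all 3 knockout arrays were below wild-type replicates 1 and 2, which was the case for 31.8% of all tested probe sets. In bulk RNA, fewer T cells and less of a transcript per T cell cannot be told apart.

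**Figure D1:**
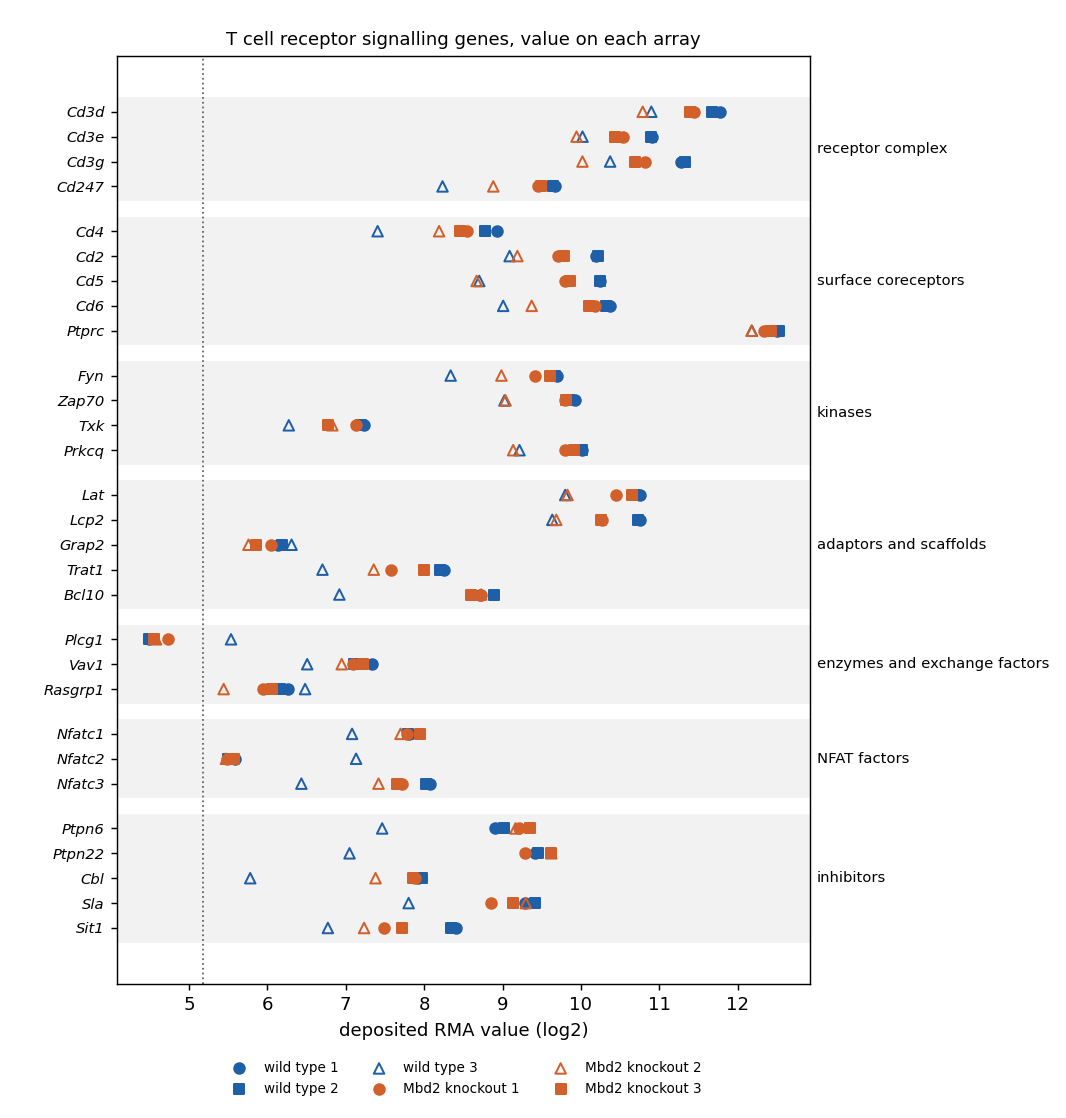
Deposited RMA value (log2, horizontal axis) of the 29 measured genes on each of the 6 arrays, grouped by role, with the filter on dim probe sets as a dotted line at 5.18. Blue symbols are wild type and orange symbols Mbd2 knockout. The open triangles, wild-type replicate 3 and knockout replicate 2, lie lowest for most receptor and surface genes, and the filled orange symbols lie just under the filled blue ones.

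Knockout replicate 2 lay apart from the other knockout arrays, over all probe sets and for these genes. Its Pearson correlation with knockout replicates 1 and 3 was 0.980 and 0.979, against 0.996 between those arrays. With wild-type replicates 1 and 2 it was 0.956 and 0.961, against 0.983 to 0.985 for knockout replicates 1 and 3. Among the 28 genes, knockout replicate 2 was below both other knockout arrays in 24 (85.7%), against 55.4% of all tested probe sets. It was the lowest of the 5 arrays in 23 (82.1%, against 47.8% of all). Over the 29 genes its median distance from the mean of wild-type replicates 1 and 2 was -0.69, against -0.22 and -0.21 in knockout replicates 1 and 3. Without it and wild-type replicate 3, in the fit of 4 arrays, 9 of the 28 genes fell and none rose past the threshold (32.1% lower, against 10.3% lower and 8.37% higher of all tested probe sets). The 9 were Cd3d, Cd3e, Cd3g, Cd4, Cd2, Cd5, Lcp2, Nfatc3 and Sit1. As with 5 arrays, 25 of the 28 genes were lower (57.1% of all probe sets were), and 16 reached an unadjusted p under 0.05 (57.1%, against 35.2% of all). The median of the 28 genes was -0.20, and that of all tested probe sets -0.03. Each of the 9 differences was smaller in size than with 5 arrays, and so was its SE.

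**Figure D2:**
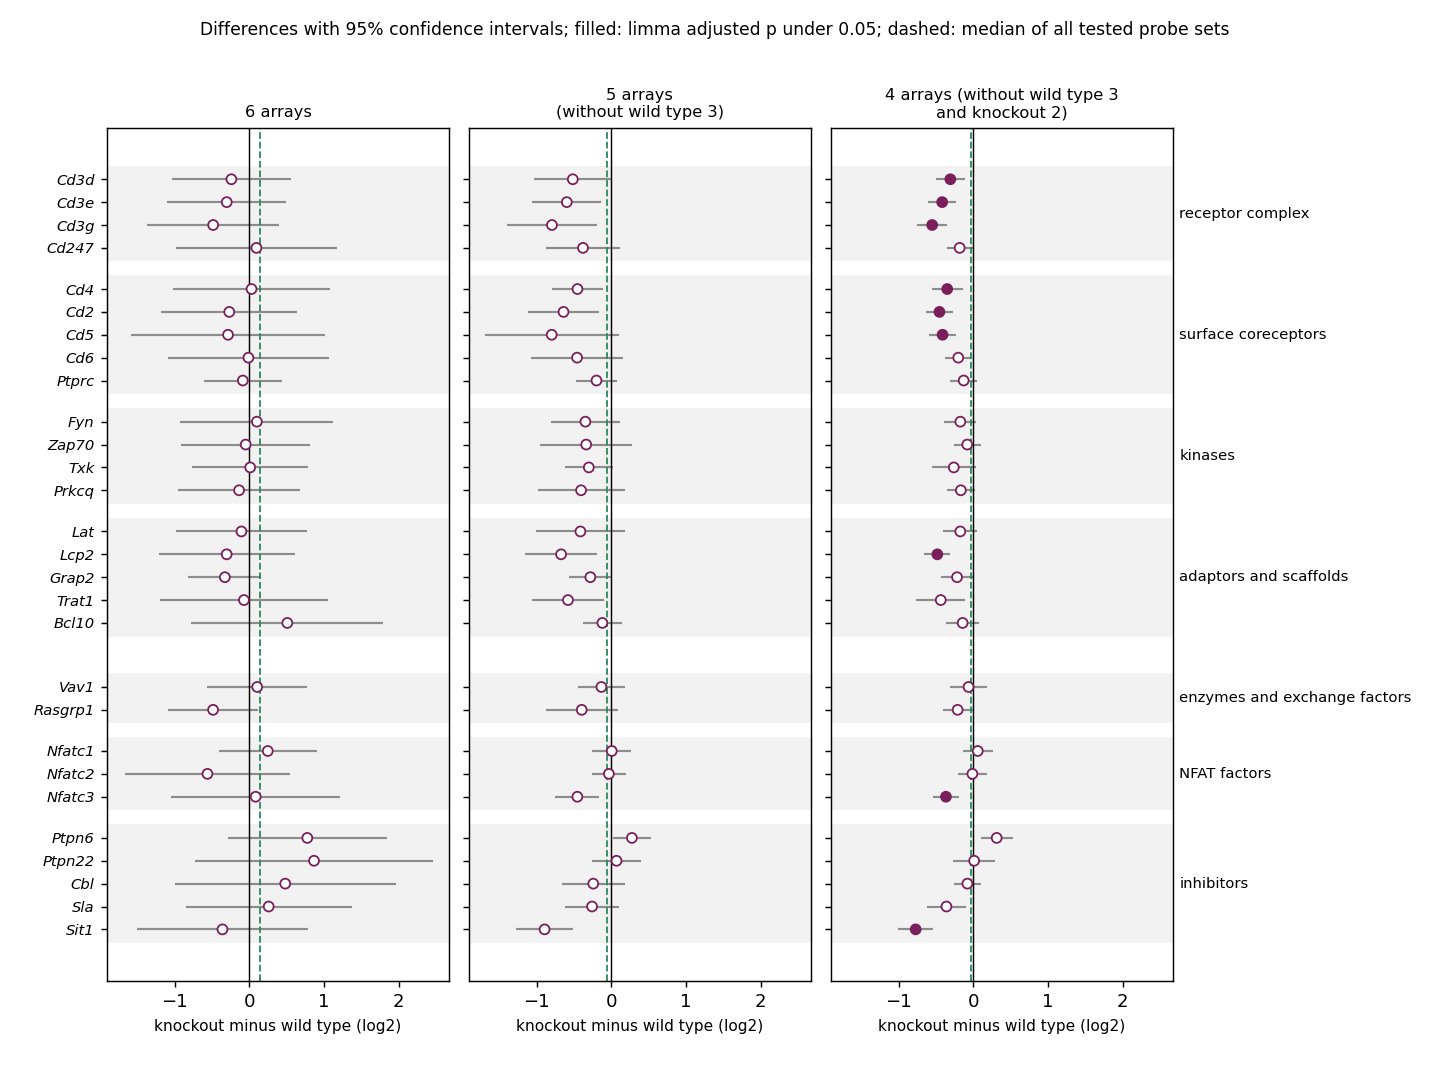
Knockout minus wild-type difference (log2, horizontal axis, the same scale in each panel) of the 28 tested genes with 95% confidence intervals from limma, for 6, 5 and 4 arrays. Filled points passed the threshold, and the dashed line is the median of all tested probe sets. No point is filled with 6 or 5 arrays, and 9 are with 4, all lower in knockout.

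The receptor complex is made of the antigen-binding chains, the CD3 gamma, delta and epsilon chains and the zeta chain, and carries the signal into the cell. With values listed from replicate 1 to replicate 3 for every gene, Cd3g was at 11.28, 11.33 and 10.37 in wild type and at 10.82, 10.02 and 10.69 in knockout. Cd3e was at 10.90, 10.89 and 10.02 in wild type and 10.54, 9.94 and 10.43 in knockout. Cd3d was at 11.77, 11.67 and 10.90 in wild type and 11.45, 10.79 and 11.39 in knockout. For each of these genes the knockout arrays were below wild-type replicates 1 and 2, and the groups overlapped only through wild-type replicate 3. With 5 arrays the log2 difference of Cd3g was -0.79 (SE 0.24, 95% interval -1.39 to -0.20, limma adjusted p = 0.151). It was -0.60 for Cd3e (SE 0.19, adjusted p = 0.156) and -0.52 for Cd3d (SE 0.21, adjusted p = 0.234). With 4 arrays all 3 fell, by 0.55, 0.42 and 0.31 on the log2 scale, with limma adjusted p of 0.00762, 0.0159 and 0.0423.

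Cd247, which encodes the zeta chain with its repeated activation motifs, was at 9.66, 9.65 and 8.23 in wild type and 9.46, 8.88 and 9.49 in knockout. Its difference was -0.38 with 5 arrays (SE 0.20, limma adjusted p = 0.326), and with 4 it was -0.18 (adjusted p = 0.13). Another of its 4 probe sets gave a larger difference with 5 arrays, -0.80, at values from 5.70 to 7.11. With 6 arrays the brightest one was at 0.09, the only receptor chain with a positive difference in that fit.

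The genes of the 3 CD3 chains lie side by side on chromosome 9, where the starts of Cd3g and Cd3d are 1355 bases apart and transcribed away from each other, and that of Cd3e lies 27825 bases beyond Cd3d. Since Mbd2 binds DNA at methylated CG dinucleotides, the 250 bases before the start are shown for these 3 genes. They are also shown for Sit1, which had the largest difference of the 28 genes with 5 arrays, and for Ptpn6, which was higher in every knockout array than in every wild-type array. The sequences are RefSeq's (GRCm38.p6), written 5′ to 3′ in the direction of the gene, with each CG in capitals.
Cd3g, chr9:44980432-44980681, minus strand: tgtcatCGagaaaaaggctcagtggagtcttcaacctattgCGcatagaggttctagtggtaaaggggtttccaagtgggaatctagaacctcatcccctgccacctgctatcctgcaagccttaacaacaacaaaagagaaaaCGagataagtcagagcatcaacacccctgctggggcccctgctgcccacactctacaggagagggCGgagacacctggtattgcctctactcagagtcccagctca
Cd3d, chr9:44981536-44981785, plus strand: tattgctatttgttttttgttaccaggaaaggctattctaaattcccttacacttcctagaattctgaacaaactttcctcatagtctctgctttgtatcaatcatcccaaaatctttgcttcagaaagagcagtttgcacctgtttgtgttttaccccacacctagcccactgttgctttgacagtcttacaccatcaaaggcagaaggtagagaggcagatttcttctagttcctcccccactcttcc
Cd3e, chr9:45009612-45009861, minus strand: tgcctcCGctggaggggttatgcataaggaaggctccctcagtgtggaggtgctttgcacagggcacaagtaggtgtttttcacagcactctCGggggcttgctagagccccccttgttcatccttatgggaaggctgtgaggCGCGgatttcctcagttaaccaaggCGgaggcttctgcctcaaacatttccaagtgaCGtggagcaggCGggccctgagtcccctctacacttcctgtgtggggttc
Sit1, chr4:43483710-43483959, minus strand: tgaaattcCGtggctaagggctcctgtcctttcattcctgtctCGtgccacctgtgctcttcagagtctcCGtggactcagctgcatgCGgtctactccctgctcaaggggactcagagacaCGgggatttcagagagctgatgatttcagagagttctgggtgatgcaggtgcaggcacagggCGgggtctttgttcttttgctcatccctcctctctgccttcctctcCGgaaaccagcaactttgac
Ptpn6, chr6:124738710-124738959, minus strand: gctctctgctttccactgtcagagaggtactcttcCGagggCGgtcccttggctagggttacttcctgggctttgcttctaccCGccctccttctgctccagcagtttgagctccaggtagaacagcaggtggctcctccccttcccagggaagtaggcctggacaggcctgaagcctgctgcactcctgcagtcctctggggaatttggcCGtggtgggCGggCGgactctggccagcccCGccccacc

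The stretch before Cd3g held 4 CG dinucleotides and that before Cd3d 0, while those before Cd3e, Sit1 and Ptpn6 held 7 each. Promoter windows of 300 bases, 50 of them after the start, were on hand for 24 of the 29 genes, in 31 windows. They held 0 to 43 CG dinucleotides with a median of 8, against a median of 7 over 32851 windows of all genes. At least 1 CG was present in 96.8% of the pathway's windows and in 94.6% of all windows. More than 10 were present in 32.3% and 41.4%. Lcp2, with none, and Cbl, with 43, were the ends of the range, at log2 differences of -0.67 and -0.24 with 5 arrays. DNA methylation was not measured on these arrays.

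Receptors at the surface tune the response. Cd4, the co-receptor that binds MHC class II and brings Lck to the receptor, was at 8.93, 8.78 and 7.41 in wild type and 8.55, 8.19 and 8.46 in knockout. Cd2, an adhesion receptor that binds CD48 and enhances signalling, was at 10.19, 10.21 and 9.09 in wild type and 9.71, 9.19 and 9.79 in knockout. Cd5, which dampens receptor signals, was at 10.24, 10.24 and 8.70 in wild type and 9.80, 8.67 and 9.86 in knockout. All 3 knockout arrays lay below wild-type replicates 1 and 2 for each of these genes, and wild-type replicate 3 lay below most of the knockout arrays.

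With 5 arrays the log2 differences were -0.45 for Cd4 (SE 0.14), -0.64 for Cd2 (SE 0.19) and -0.80 for Cd5 (SE 0.37), with limma adjusted p of 0.149, 0.149 and 0.271. With 4 arrays they fell, by 0.35, 0.45 and 0.41 on the log2 scale (adjusted p = 0.038, 0.0108 and 0.0135). Knockout replicate 2 was the lowest array for Cd5, the gene of these 3 whose difference changed most without it. A dimmer Cd4 probe set gave -0.47 with 5 arrays, close to the brighter one. With 6 arrays they parted, at 0.03 for the brighter and -0.89 for the dimmer. Wild-type replicate 3 was the lowest array for the brighter one and the highest for the dimmer. Cd6, a relative of CD5, was at -0.46 (adjusted p = 0.341) with 5 arrays. Ptprc, the phosphatase CD45 carried by leukocytes in general, had values of 12.17 to 12.52 on all 6 arrays and a difference of -0.20 (95% interval -0.47 to 0.07, adjusted p = 0.342).

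None of the 4 measured kinases passed the threshold in any of the fits with 6, 5 or 4 arrays. Zap70, which binds the phosphorylated receptor chains, was at 9.92, 9.85 and 9.02 in wild type and 9.80, 9.04 and 9.81 in knockout. Knockout replicates 1 and 3 lay close to wild-type replicate 2, and knockout replicate 2 lay near wild-type replicate 3. Its log2 difference was -0.34 with 5 arrays (SE 0.25, limma adjusted p = 0.469) and -0.08 with 4 (SE 0.07, adjusted p = 0.489), and a dimmer probe set gave 0.00 with 5 arrays.

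Fyn, a Src-family kinase beside Lck, was at 9.69, 9.66 and 8.34 in wild type and 9.41, 8.99 and 9.60 in knockout. Prkcq, protein kinase C theta, which leads to NF-kappaB, was at 10.02, 10.02 and 9.22 in wild type and 9.79, 9.13 and 9.91 in knockout. Txk, a Tec-family kinase, was at 7.23, 7.19 and 6.27 in wild type and 7.13, 6.83 and 6.78 in knockout. In each of the 4 genes every knockout array was below wild-type replicates 1 and 2. With 5 arrays the differences of Fyn, Prkcq and Txk were -0.35, -0.40 and -0.30, with limma adjusted p of 0.335, 0.368 and 0.255. With 4 arrays they were -0.17, -0.17 and -0.26, with adjusted p of 0.223, 0.186 and 0.179.

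Among the adaptors Lcp2, which encodes SLP-76, had the lowest p with 5 and with 4 arrays, and Grap2 with 6. Lcp2 was at 10.75, 10.73 and 9.63 in wild type and 10.27, 9.68 and 10.25 in knockout, a log2 difference of -0.67 with 5 arrays (SE 0.20, limma adjusted p = 0.14). With 4 arrays it fell by 0.48 on the log2 scale (adjusted p = 0.00789), and its other probe set gave -0.52 with 5 arrays. Trat1, a transmembrane adaptor that associates with the receptor, was at 8.25, 8.21 and 6.70 in wild type and 7.58, 7.36 and 8.0 in knockout. Its difference was -0.58 with 5 arrays (SE 0.19, limma adjusted p = 0.174), and with 4 it was -0.43 (adjusted p = 0.0736). Knockout replicate 3 lay closest to wild type for Trat1.

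Grap2, which encodes the adaptor Gads that links SLP-76 to LAT, was dimmer, at 6.14, 6.19 and 6.31 in wild type and 6.04, 5.76 and 5.86 in knockout. Here wild-type replicate 3 was the highest array, as for Rasgrp1 and Nfatc2 among the 28 genes. All knockout arrays lay below wild-type replicates 1 and 2, as in 31.8% of all tested probe sets, and also below wild-type replicate 3. The share of probe sets with knockout below all wild-type arrays was not counted. The difference of Grap2 was -0.33 with 6 arrays (SE 0.20, limma adjusted p = 0.829), -0.28 with 5 (adjusted p = 0.233) and -0.22 with 4 (adjusted p = 0.138). Lat was at -0.41 with 5 arrays (adjusted p = 0.37). Bcl10, a scaffold on the way to NF-kappaB, was at -0.12 (95% interval -0.38 to 0.14, adjusted p = 0.536).

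Of the enzymes and exchange factors that follow the adaptors, Rasgrp1, which activates Ras in T cells, was at 6.26, 6.17 and 6.48 in wild type and 5.94, 5.44 and 6.06 in knockout. All knockout arrays lay below all wild-type arrays, of which replicate 3 was the highest. The share of all tested probe sets with knockout below all wild-type arrays was not counted. In 31.8% all knockout arrays were below wild-type replicates 1 and 2. The difference of Rasgrp1 was -0.49 with 6 arrays (SE 0.25, limma adjusted p = 0.829) and -0.40 with 5 (SE 0.20, adjusted p = 0.298). Its further probe sets lay under the filter. Vav1, an exchange factor, was at 7.33, 7.11 and 6.51 in wild type and 7.10, 6.95 and 7.22 in knockout, so the groups overlapped also without wild-type replicate 3 (difference -0.13, adjusted p = 0.571). Plcg1 lay at 4.49 to 5.54 and was not tested.

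The NFAT factors carry the calcium signal to the nucleus. Nfatc3 was at 8.07, 8.03 and 6.43 in wild type and 7.72, 7.42 and 7.66 in knockout, with a difference of -0.45 with 5 arrays (SE 0.12, limma adjusted p = 0.121), and -0.47 from its other probe set. It fell by 0.37 on the log2 scale with 4 arrays (adjusted p = 0.0204). Nfatc1 was at 7.80, 7.80 and 7.08 in wild type and 7.78, 7.70 and 7.94 in knockout, a difference of 0.01 with 5 arrays (95% interval -0.26 to 0.27, adjusted p = 0.977). Nfatc2 was at 5.59, 5.50 and 7.13 in wild type and 5.49, 5.47 and 5.58 in knockout, a difference of -0.03 (95% interval -0.26 to 0.20, adjusted p = 0.863). Knockout and wild-type replicates 1 and 2 overlapped for both Nfatc1 and Nfatc2.

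The differences of the 5 inhibitors had both signs with 5 arrays, 3 lower and 2 higher in knockout, and none passed the threshold. Sit1, a transmembrane adaptor that recruits the phosphatase SHP-2 and restrains receptor signals, had the largest difference of the 28 genes with 5 arrays. It was at 8.40, 8.34 and 6.77 in wild type and 7.49, 7.23 and 7.71 in knockout, so that every knockout array was well below wild-type replicates 1 and 2 and above wild-type replicate 3. The difference was -0.89 with 5 arrays (SE 0.15, 95% interval -1.27 to -0.52), a 1.86-fold lower level that just missed the threshold (limma adjusted p = 0.0576). With 4 arrays Sit1 fell by 0.77 on the log2 scale (SE 0.10, adjusted p = 0.0043). With 6 arrays it was at -0.36 (adjusted p = 0.829).

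Ptpn6, which encodes SHP-1, a phosphatase of lymphoid and myeloid cells, was at 8.91, 9.02 and 7.46 in wild type and 9.20, 9.16 and 9.35 in knockout. It was the only one of the 28 genes with every knockout array above wild-type replicates 1 and 2 (3.57%, against 15.6% of all tested probe sets). Its difference was 0.28 with 5 arrays (SE 0.10, 95% interval 0.02 to 0.53, limma adjusted p = 0.208), 0.31 with 4 (adjusted p = 0.0539) and 0.78 with 6 (adjusted p = 0.829). Another Ptpn6 probe set gave 0.21 with 5 arrays. Ptpn22, a phosphatase that acts on Lck and ZAP-70, was at 0.07 with 5 arrays (95% interval -0.26 to 0.40, adjusted p = 0.787).

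Sla, which encodes the adaptor SLAP that promotes degradation of the receptor, was at 9.29, 9.42 and 7.80 in wild type and 8.86, 9.30 and 9.13 in knockout. Its groups overlapped also without wild-type replicate 3, and its difference was -0.26 with 5 arrays (SE 0.15, limma adjusted p = 0.363). The ubiquitin ligase gene Cbl was at -0.24 (adjusted p = 0.452).

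Set side by side, the median log2 difference with 5 arrays was -0.56 over the 4 receptor chains, -0.46 over the 5 surface receptors, -0.41 over the 5 adaptors and -0.34 over the 4 kinases. It was -0.26 over the 2 tested enzymes and exchange factors, -0.24 over the 5 inhibitors and -0.03 over the 3 NFAT factors. With 4 arrays the medians were -0.36, -0.35, -0.22, -0.17, -0.14, -0.08 and -0.01 in the same order, and the calls lay among the receptor chains (3), surface receptors (3), adaptors (1), NFAT factors (1) and inhibitors (1). With 6 arrays the medians ran from -0.27 for the receptor chains to 0.48 for the inhibitors. These are descriptions, and the difference between the groups of genes was not tested.

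Several probe sets measured 14 of the 29 genes. Of their 16 further probe sets above the filter, 12 had the sign of the brightest one with 5 arrays and 4 the opposite sign. The opposite signs came from Zap70, Nfatc1 and Nfatc2, at -0.01 to 0.10 in the further probe sets. With 6 arrays the split was again 12 against 4.

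**Figure D3:**
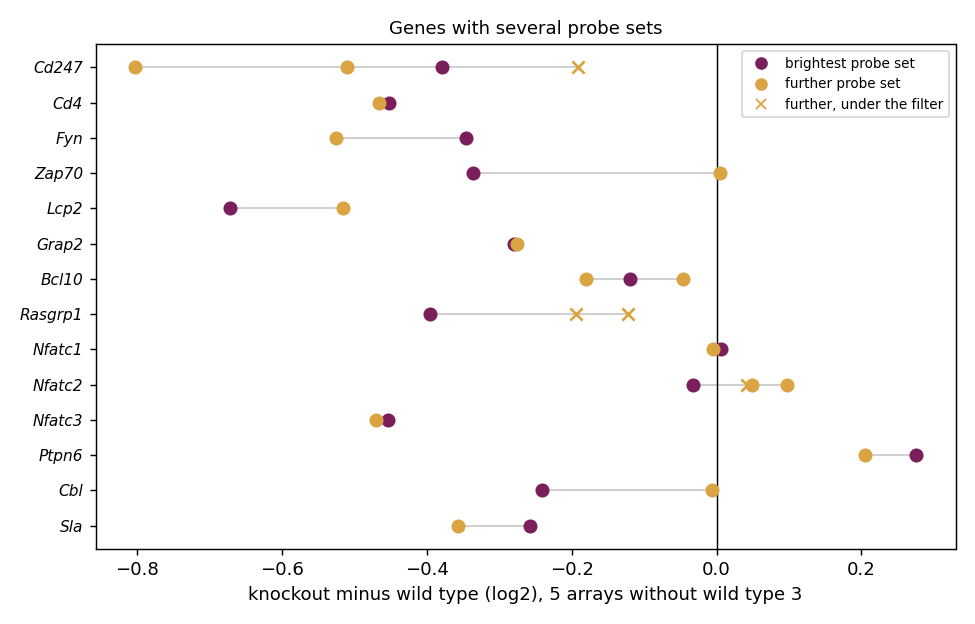
Knockout minus wild-type difference (log2, horizontal axis) with 5 arrays for every probe set of the 14 genes with several, the brightest in purple and the others in yellow, with crosses for those under the filter. Probe sets of Cd4, Grap2 and Nfatc3 gave nearly equal differences, while those of Cd247 spread from -0.80 to -0.19 and those of Zap70 from -0.34 to 0.00.

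Of 66 further genes of the pathway, 49 were measured, and none passed the threshold with 6 or 5 arrays. With 5 arrays 43 were lower and 6 higher, with a median of -0.28, and 17 reached an unadjusted p under 0.05. Over all probe sets 60.7% were lower and 21.6% reached that p. With 4 arrays 12 of the 49 fell and 0 rose past the threshold, against 10.3% lower and 8.37% higher of all probe sets. Fyb, the adaptor ADAP that links the receptor to integrins, had the lowest p with 5 arrays, at -0.65 (SE 0.11, limma adjusted p = 0.0547), and fell by 0.59 with 4 (adjusted p = 0.00553). Sh2d1a, the adaptor SAP of SLAM receptors, was at -0.79 with 5 arrays (adjusted p = 0.1) and fell by 0.61 with 4 (adjusted p = 0.00451).

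Among 12 further negative regulators, 11 were lower with 5 arrays, with a median of -0.32, against 60.7% of all probe sets, and 6 of 12 fell with 4 arrays, against 10.3% of all. Dok2, an inhibitory adaptor, was at -0.55 with 5 arrays (limma adjusted p = 0.0609), and the phosphatase gene Ptpn11, which encodes SHP-2, at -0.34 (adjusted p = 0.113). The lists of calcium, Ras and MAP kinase, and PI3K and NF-kappaB genes had medians of -0.16, -0.13 and -0.17 with 5 arrays. Of these, the inositol trisphosphate receptor gene Itpr2 was at -0.35 (adjusted p = 0.171), the calcineurin gene Ppp3cb at -0.48 (adjusted p = 0.245), and Ikbkb and Ikbkg, subunits of the IkappaB kinase, at -0.35 and -0.29 (adjusted p = 0.196 and 0.318). The MAP kinase gene Mapk9 was at -0.28 (adjusted p = 0.153) and fell by 0.27 with 4 arrays (adjusted p = 0.0483), while Mapk14, which encodes p38 alpha, was at 0.25 with 5 (adjusted p = 0.247).

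Several lists of markers of other cell types were higher in knockout. All 11 measured neutrophil and granulocyte markers were higher in knockout, of which 5 passed the threshold with 6 arrays and 7 with 5. In that direction 0.103% of all tested probe sets passed with 6 arrays and 0.67% with 5, while 36.8% and 60.7% of all were lower. The summed signal of the neutrophil and granulocyte markers, on the linear scale, was 631 to 1554 in wild type and 24434 to 35433 in knockout. All 9 tested markers of monocytes, macrophages and dendritic cells were higher, at sums of 442 to 676 and 3357 to 7919 for the 10 measured ones, of which Itgam lay under the filter. Of the 9, 1 passed the threshold with 6 arrays and 3 with 5. The 8 tested B cell markers were all higher, at sums of 855 to 2009 and 3867 to 8062 for 9 genes, with Pax5 under the filter. Of the 8, 0 passed the threshold with 6 arrays and 1 with 5. Of the 9 markers of CD8 T cells and NK cells, 8 were higher with 6 arrays and 9 with 5, and 0 and 1 passed the threshold. Their sums were 765 to 1606 and 1657 to 4477. Without wild-type replicate 3 the wild-type range was 1329 to 1606, close to the lowest knockout array. Erythroid and platelet markers had sums of 213 to 698 in wild type and 236 to 266 in knockout. Without wild-type replicate 3 the wild-type range was 213 to 225, below every knockout array. None of the 3 tested ones passed the threshold in the fits with 6, 5 or 4 arrays, and 4 of the 7 measured ones lay under the filter, among them the platelet genes Pf4 and Ppbp and the erythroid genes Alas2 and Klf1.

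The summed signal of the Treg and T cell markers was 2081 to 6928 in wild type, 6634 to 6928 without wild-type replicate 3, and 3618 to 5135 in knockout. With 5 arrays all 8 tested markers were lower (60.7% of all probe sets were) and none passed the threshold. Their median was -0.77 against -0.39 for the pathway. With 4 arrays 4 of the 8 fell (10.3% of all), among them Foxp3 by 0.71 on the log2 scale (limma adjusted p = 0.00482). Lef1 was higher in that fit, at 0.21 (adjusted p = 0.275). Foxp3 was at -1.19 with 5 arrays (adjusted p = 0.212) and at -0.58 with 6 (adjusted p = 0.829). The summed signal of the 29 pathway genes was 29101, 28878 and 15650 in wild type, and in knockout it was 23934, 17833 and 24648. Knockout replicate 2, lowest of the knockout arrays in both sums, had the highest sums of neutrophil, macrophage, B cell, and CD8 T and NK cell markers. Its values were the lowest of the knockout arrays for 3 of the 11 neutrophil and granulocyte markers, Elane, Mpo and Prtn3, and for Cd8b1. Wild-type replicate 3, lowest of all in the pathway sum and the Treg and T cell sum, had 669 for neutrophil markers, between the other wild-type arrays. It had 676 for macrophage markers, above their 442 and 575. The values of that array had a smaller spread (SD 1.36 against 1.78 to 1.83), so its sums cannot be compared with the others as cell content. The part of other cell types in the differences of the pathway was not tested.

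**Figure D4:**
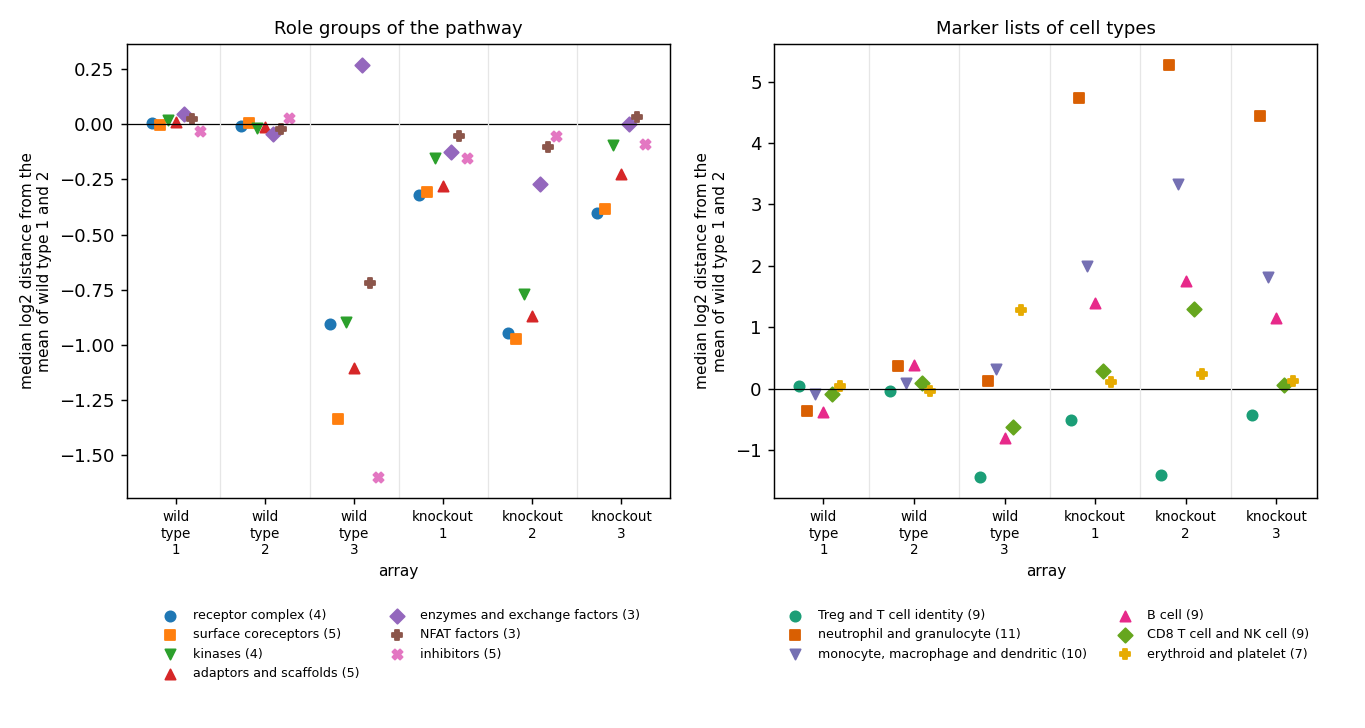
Median log2 distance from the mean of wild-type replicates 1 and 2 on each array (vertical axis), for the role groups of the pathway (left) and for marker lists of cell types (right), with the number of measured genes in brackets. In knockout the receptor and surface groups lie lowest on knockout replicate 2, at -0.94 and -0.97, where the neutrophil markers are highest, at 5.27. Wild-type replicate 3, whose values had the smallest SD, is low in most pathway groups, and there the neutrophil markers are at 0.12.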

How the data were processed

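RNA of 6 samples was measured on single-colour arrays. The values deposited by the authors are log2 expression values per probe set, made with RMA per the submitters' processing notes. For the software and the joint normalization of arrays, details were not given in the sources used here. The values carry no depth. Precision is limited by the number of arrays.

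Groups came from the sample titles. Of 22690 probe sets, 64 controls were left out, and the 40% with the lowest mean over 6 arrays (under 5.18) were filtered, leaving 13575. Of 22626 non-control probe sets, 20380 had 1 symbol, 691 several and 1555 were not listed. Symbols were updated by gene ID through RefSeq (GRCm38.p6). A linear model with genotype as its term was fitted and moderated with lmFit and eBayes (limma 3.58.1, run in R 4.3.3), with p-values adjusted by Benjamini and Hochberg's method over all tested probe sets. The script was tested on simulated data. Figures used matplotlib 3.10.9.

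Members, role groups, marker lists (55 of 60 genes measured), the use of 5 arrays and the alternatives were chosen with earlier results of these data known. Values per array are given for members past the threshold, the 3 of each role group with the smallest p with 5 arrays, the receptor chains, Cd4 and Zap70. Of each further list, genes past the threshold with 6 or 5 arrays and the 2 with the smallest p with 5 arrays are named; other members are named by their difference. Alternatives were filters, variance and array weights, renormalization, centring, the replicate number as a block, the mean of probe sets and leaving out each array.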

Additional observations from a re-analysis of the deposited data

How the results depend on the processing

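With 6 arrays, 0 pathway genes were called under every setting tried except array quality weights, which called 8 (2323 of all probe sets). These weights nearly left out wild-type replicate 3, at 0.0289. With them Nfatc3 and Sla turned to -0.34 and -0.44, both past the threshold, from 0.08 and 0.26. Quantile normalization again gave a median of -0.33 with 23 genes lower, and median centring -0.01 with 14 lower, against -0.06 with 16. Leaving out each array in turn gave medians from -0.39 to 0.14 and 0 calls each.

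With 5 arrays, the median lay between -0.48 and -0.20 under all settings. The count of calls was 12 with array quality weights (27.9% of all probe sets, 11 lower and Ptpn6 higher). These weights were lowest for knockout replicate 2, at 0.13 against 0.837 to 3.19 for the others, so the setting comes near to leaving it out. The count was 2 with the replicate number as a block, against 0 without it. These were Sit1 at -1.01 and Trat1 at -0.76 (limma adjusted p = 0.0167 and 0.0461). That block leaves knockout replicate 3 without a partner. The sample titles do not say whether the numbers pair the samples. Deviations of same-numbered arrays from their group means correlated at 0.15, -0.09 and -0.14. These values cannot decide it, because wild-type replicate 3 moves the mean that all wild-type deviations are taken from. With 6 arrays the block called 0. Leaving out a further array gave 0 to 9 calls, 9 without knockout replicate 2, and medians from -0.48 to -0.20. Filters, a trended robust variance, both normalizations and the mean of probe sets called 0 genes. Among single genes, 6 uncalled values changed sign with 5 arrays and 47 with 6, over all settings. No detection calls came with the values, so dim genes such as Plcg1, Nfatc2, Grap2 and Rasgrp1 may sit near background.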
